A study of Homo sapiens with 21 samples.

Results

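In SK-N-BE(2) neuroblastoma cells, silencing both ARID1A and ARID1B opened far fewer distal sites than it closed, and the 1004 distal sites described here were those opened by both hairpin combinations. They were selected on measured values, out of 367900 consensus ATAC-seq sites. Each read count was scaled to CPM, the usual depth-corrected count, by the reads of its library in all sites, and the 3 libraries of a group were averaged. A site was taken when its deposited distance to a transcription start site was over 3000 bases. In addition, both combination means had to be at least 1.5 times the Control mean, and both at least 1.5 CPM. The deposited distance was not always to the closest known start. Of the 1004 sites, 27 were annotated as promoters, and 171 lay within 1000 bases of a GENCODE v44 transcript start. Of 342349 distal sites, 94646 had at least 1.5 CPM in both combinations, and the 1004 opened sites were 1.06% of these. The mirror rule, at least 1.5 CPM in Control and both combinations at most the Control mean divided by 1.5, gave 17710 closed distal sites. Within 3000 bases by the same deposited distance, 286 sites passed the same ratio and level. A further 10101 distal sites passed both ratios but had under 1.5 CPM in at least 1 combination, so that the opened sites are those deep enough to be read.

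Short hairpin RNAs (shRNAs) were delivered by lentivirus and open chromatin was profiled 72 h after transduction, in 7 groups of 3 libraries labelled as biological triplicates. The groups were Control, whose construct the labels do not describe, shARID1A.2 and shARID1A.4 against ARID1A, shARID1B.2 and shARID1B.3 against ARID1B, and shARID1A/B.2.3 and shARID1A/B.4.2 against both genes. By the numbers in their names, shARID1A/B.2.3 joins shARID1A.2 with shARID1B.3, and shARID1A/B.4.2 joins shARID1A.4 with shARID1B.2. All groups share the same line, a MYCN-amplified neuroblastoma line grown from a bone-marrow metastasis, so the data describe 1 genetic background. Accessibility does not measure the transcripts that the hairpins target, so these data hold no check of the knockdown.

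ARID1A and ARID1B are alternative, mutually exclusive subunits of BAF, the form of the SWI/SNF remodeller that slides and ejects nucleosomes at enhancers and keeps them accessible. CTCF, a zinc finger protein that anchors chromatin loops, and NFY, a trimeric factor that reads the CCAAT box, both bind DNA and position the nucleosomes around them. Human genomes also carry NFY sites in long terminal repeats of endogenous retroviruses, and tandem GGAAT pentamers in the satellite DNA beside several centromeres.

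The central 300 bases of 6 opened sites, which run past the ends of the shortest sites, show the kinds of sequence the set holds, on the plus strand of GRCh38. The site nearest to LINC00358 had the largest ratio, and the capitals mark its TEAD match. The site nearest to LINC00266-1, a subtelomeric site, holds the CTCF motif in capitals. The site nearest to SESN2 holds an E-box, written there as its reverse complement, and a PHOX2 match. The sites nearest to RGS4 and GULP1 separated single hairpins or the 2 genes, and their AP-1 and GATA matches are in capitals. The site nearest to ANKRD26P1 stands for the satellite pentamers, of which 15 lie in the window on this strand, and it was added to these after its values were seen.
LINC00358, chr13:62697756-62698055: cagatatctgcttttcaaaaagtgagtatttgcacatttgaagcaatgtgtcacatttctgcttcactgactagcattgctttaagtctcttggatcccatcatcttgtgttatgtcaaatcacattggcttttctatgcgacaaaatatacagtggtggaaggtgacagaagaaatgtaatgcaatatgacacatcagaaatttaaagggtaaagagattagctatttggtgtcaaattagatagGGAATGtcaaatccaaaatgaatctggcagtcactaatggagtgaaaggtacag
LINC00266-1, chr20:64285828-64286127: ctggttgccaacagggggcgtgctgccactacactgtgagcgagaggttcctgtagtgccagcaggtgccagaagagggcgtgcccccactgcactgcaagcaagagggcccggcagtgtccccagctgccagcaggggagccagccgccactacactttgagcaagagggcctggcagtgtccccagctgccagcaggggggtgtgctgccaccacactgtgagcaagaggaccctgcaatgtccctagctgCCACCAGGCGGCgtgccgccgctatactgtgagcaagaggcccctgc
SESN2, chr1:28248951-28249250: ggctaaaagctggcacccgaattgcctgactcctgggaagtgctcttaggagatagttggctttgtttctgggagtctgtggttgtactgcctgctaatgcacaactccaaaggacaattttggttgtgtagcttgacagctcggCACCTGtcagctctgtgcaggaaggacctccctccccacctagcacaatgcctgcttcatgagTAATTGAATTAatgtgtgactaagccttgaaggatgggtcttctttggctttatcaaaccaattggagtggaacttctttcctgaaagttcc
RGS4, chr1:163050593-163050892: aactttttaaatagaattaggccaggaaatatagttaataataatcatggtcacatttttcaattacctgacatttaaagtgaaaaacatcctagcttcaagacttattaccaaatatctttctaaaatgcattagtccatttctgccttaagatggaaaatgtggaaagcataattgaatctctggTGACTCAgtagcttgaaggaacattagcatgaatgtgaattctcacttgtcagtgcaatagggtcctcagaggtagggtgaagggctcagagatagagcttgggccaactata
GULP1, chr2:188022736-188023035: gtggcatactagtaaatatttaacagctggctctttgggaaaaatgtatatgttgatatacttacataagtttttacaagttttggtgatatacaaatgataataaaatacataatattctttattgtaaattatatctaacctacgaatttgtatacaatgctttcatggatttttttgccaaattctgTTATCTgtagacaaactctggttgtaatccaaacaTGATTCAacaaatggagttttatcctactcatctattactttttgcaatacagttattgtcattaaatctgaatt
ANKRD26P1, chr16:46399842-46400141: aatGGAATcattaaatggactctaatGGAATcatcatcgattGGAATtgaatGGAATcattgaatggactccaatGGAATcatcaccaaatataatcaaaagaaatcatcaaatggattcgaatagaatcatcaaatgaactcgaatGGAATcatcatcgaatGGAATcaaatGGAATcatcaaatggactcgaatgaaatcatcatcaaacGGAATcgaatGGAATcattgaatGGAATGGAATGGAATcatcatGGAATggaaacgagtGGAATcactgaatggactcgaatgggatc

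Libraries held 16140029 to 44472230 reads in sites, and the chi-square between replicates of a group was 1.08 to 2.47 per degree of freedom. The pairs with shARID1A/B.2.3 replicate 2 were the farthest apart, at 2.19 and 2.47. The line was checked on its markers. Of 12 sympathoadrenergic genes, 10 had a site within 3000 bases of their start, at 2.42 to 43.8 CPM in Control with a median of 18.7, and ISL1 and MYCN had no such site. Of 13 genes of blood, epithelium, liver, endothelium and melanocytes, 9 had one, at 1.26 to 14.3 CPM with a median of 2.74.

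The opened sites were weak sites that gained moderately. Their median level was 1.47 CPM in Control, with quartiles of 1.12 and 2.21, and reached 2.53 CPM with shARID1A/B.2.3 and 2.48 CPM with shARID1A/B.4.2. The other 93642 distal sites at 1.5 CPM or more in both combinations had a median of 3.03 CPM in Control. The ratio to Control had a median of 1.67 for shARID1A/B.2.3, and of 1.64 for shARID1A/B.4.2. These ratios are what the rule chose and are given as a description. The smaller of the 2 ratios had a median of 1.59 and was at least 2 at 47 sites, at least 2.5 at 11 and at least 3 at 3. Most of the set lies close to its own threshold, and the smaller ratio was at least 1.6 at 447 sites, or 44.5%. All 6 combination libraries lay above all 3 Control libraries at 840 opened sites, or 83.7%, and at 5.97% of the other distal sites. The rule chose the opened sites on these same libraries, so these shares too are a description.

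**Figure D1:**
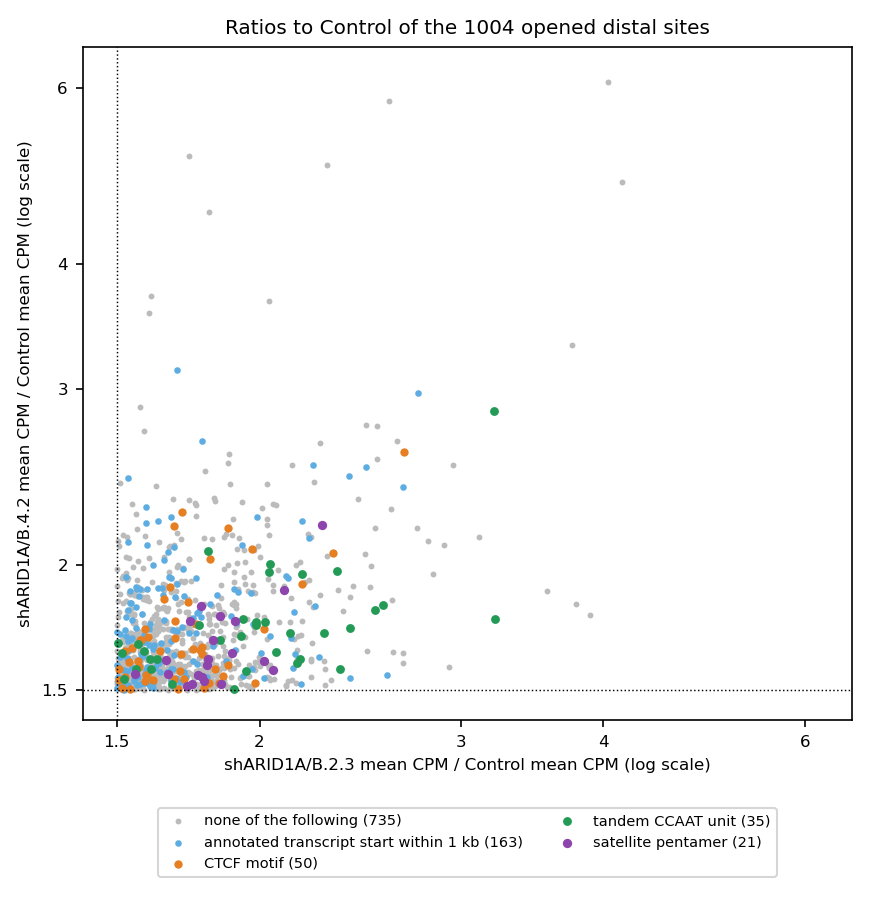
Ratio of the combination mean to the Control mean at each opened distal site, shARID1A/B.2.3 on the x axis and shARID1A/B.4.2 on the y axis, both on log scales, coloured by sequence group, with dotted lines at the threshold of 1.5. Most sites sit near the corner, the median of the smaller ratio is 1.59, and the points farthest from the corner along both axes are a pair of sites nearest to LINC00358, at 4.15 and 4.84 and at 4.03 and 6.09.

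How many sites pass depended on the scale on which the libraries were set. With library totals scaled by TMM (edgeR's trimmed mean of M-values) 964 sites passed, 805 of them among the 1004. With TMM factors taken from promoter sites 132 passed, all of them among the 1004. Promoter sites held 20.0% to 20.6% of the reads in Control libraries and 23.4% to 25.1% in combination libraries. A ratio of at least 2 kept 47 sites and a level of at least 3 CPM kept 329. The gain is therefore a gain relative to all reads in sites, and for most of the set it was under the threshold relative to promoters. Without Control replicate 3 the rule found 1697 sites, of which 844 were shared.

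Sites on either side of the thresholds differed little. A site in an intron of RBFOX3, nearest to ENGASE, was just inside with ratios of 1.52 and 1.5002, and a site in an intron of MARCH6, nearest to ROPN1L-AS1, was just outside with 1.4998 and 1.72. At the level threshold, a site nearest to CXCR4 was inside with 1.59 and 1.5001 CPM in the combinations, and a site nearest to CDYL was outside with 1.87 and 1.498 CPM. At the distance threshold, a site in intron 2 of EEF1A2 was inside at 3003 bases, and the promoter site of CRMP1 was outside at -2993 bases, that is upstream of its start.

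Because the rule would pick sites raised by counting error, its measure was also read in libraries it had not used. The rule was applied to 2 replicate numbers of Control and of each combination, and the ratios were read in the third. With replicate 1, 2 or 3 held out, the rule on the other libraries found 1374, 1429 and 1659 sites, of which 691, 631 and 747 were among the 1004. In the held-out libraries, both ratios were above 1 at 82.5%, 75% and 80.3% of these sites, against 36.4%, 31.4% and 34.8% of all distal sites at the level threshold. Both ratios were again at least 1.5 at 25.4%, 23.4% and 21.6%, against 3.01%, 3.01% and 2.38%. The median held-out ratio was 1.41 to 1.46 with shARID1A/B.2.3 and 1.31 to 1.37 with shARID1A/B.4.2, where all distal sites at the threshold had 1.01 and 0.945 to 0.971. Most of the sites found in this way thus kept their direction in libraries that had not chosen them, with smaller ratios than in those that had.

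The edgeR quasi-likelihood test over 357029 sites, with TMM scaling and a false discovery rate (FDR) under 0.01, called 674 of the 1004 opened sites higher with shARID1A/B.2.3 than in Control, where 2.86% of all tested sites were called higher. With shARID1A/B.4.2 it called 709, where 3.97% of all tested sites were. The rule used these libraries, so nothing is read from these counts. Of the 4 single hairpins, the ARID1A pair was called higher than Control at 385 opened sites, beside 1.68% of all tested sites, and the ARID1B pair at 292, beside 1.4%. These counts were 208 and 154 without Control replicate 2, and 172 and 147 with TMM factors from promoter sites. These contrasts share the Control libraries with the rule and are likewise a description. No opened site was called lower in any of the 4 contrasts.

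The single hairpins lay between Control and the combinations. The median level of the opened sites was 2.17 CPM with shARID1A.2 and with shARID1A.4, 1.97 CPM with shARID1B.2 and 2.22 CPM with shARID1B.3, and their median ratios to Control were 1.47, 1.46, 1.34 and 1.48. All 4 single means were above the Control mean at 920 sites, and at 402 of these all 4 also lay below both combination means. At 260 sites at least 1 single hairpin exceeded both combinations. There was no site where all 4 single hairpins were at or below Control. These counts were not taken over other distal sites. The rule chose sites low in Control and high in the combinations, which favours a place between them for other libraries. The counts and levels are therefore a description. The share of reads in opened sites was 0.256% to 0.270% in Control libraries, 0.358% to 0.394% with single hairpins and 0.452% to 0.459% with combinations, and these ranges did not overlap. In the same libraries the closed distal sites fell from 10.3% to 10.6% of reads in Control to 6.50% to 8.35% with single hairpins and 4.52% to 4.95% with combinations. The opened sites thus held far fewer reads than the closed sites lost.

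**Figure D2:**
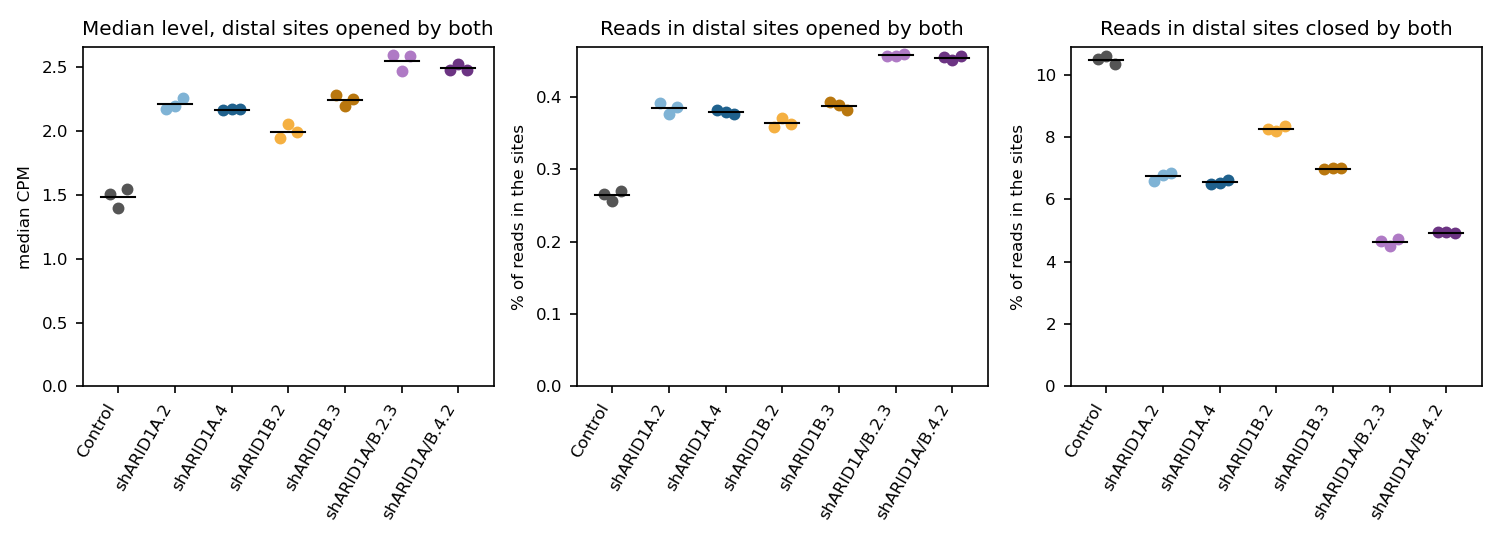
Median CPM over the opened distal sites (left), and the percentage of a library's reads in opened (middle) and closed (right) distal sites, for the 3 libraries of each group, with a line at the group mean. Both sets were chosen for a difference between the Control and combination libraries. The single-hairpin libraries lie between them in all 3 plots, a place that this choice favours.

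The means compared among the single hairpins use neither Control nor combination libraries, while the spread of the test was estimated from all 21 libraries. Opened sites were called higher with ARID1A than with ARID1B silencing at 39 sites, or 3.88%, where 1.05% of all tested sites were, and lower at 29, or 2.89%, where 3.69% were. The median log2 difference over the opened sites was 0.04, with quartiles of -0.08 and 0.17, and 0.0056 over all tested sites. Of 17710 closed sites, 941 were called higher and 4464 lower, that is lower after ARID1A silencing, with a median of -0.18. Calls over all 357029 tested sites leaned the same way, with 3741 higher and 13180 lower, but their median was 0.0056. The direction of the calls is thus not particular to closed sites, while the median was shifted in closed sites and not over all tested sites. Between the hairpins of 1 gene, shARID1A.2 was higher than shARID1A.4 at 12 opened sites (1.20%), where 0.737% of all tested sites were called. It was lower at 28 (2.79%), where 1.84% were. Between the ARID1B hairpins, shARID1B.3 was higher than shARID1B.2 at 56 opened sites (5.58%), where 2.96% of all tested sites were called. It was lower at 31 (3.09%), where 4.26% were. The median log2 difference was -0.05 between the ARID1A hairpins and 0.15 between the ARID1B hairpins. Of the 93642 other distal sites at the level threshold, 2147 were called higher and 7514 lower between the genes. Calls were 1678 and 4284 between the ARID1A hairpins, and 5007 and 8149 between the ARID1B hairpins. In each direction these are larger shares than over all tested sites, which include sites under the level threshold. Set against these other distal sites, the share of opened sites called was clearly larger only for the higher calls between the genes. It was nearly the same for the higher calls between the ARID1B hairpins, and smaller for the rest. With TMM factors from promoter sites, the split of higher and lower calls among opened sites became 30 and 36 between ARID1A and ARID1B silencing, 18 and 22 between the ARID1A hairpins and 28 and 45 between the ARID1B hairpins. The larger side thus turned with the scaling between the 2 genes and between the ARID1B hairpins, and kept its direction between the ARID1A hairpins. Between the ARID1B hairpins the number of calls, 87 in all, fell to 48 and 54 without shARID1B.2 replicates 1 and 3 and to 56 and 57 without shARID1B.3 replicates 1 and 2. A fit of the 12 single-hairpin libraries alone, whose spread uses no library of the rule either, called 52 opened sites higher and 32 lower between the genes, where 1.45% and 4.32% of the sites it tested were called. It called 16 and 30 between the ARID1A hairpins (1% and 2.19%), and 96 and 37 between the ARID1B hairpins (3.98% and 5.05%). In the fit of all libraries, 154 opened sites (15.3%) were called in at least 1 of these 3 contrasts. Over all tested sites, which include those under the level threshold, 11.4% were. At 850 opened sites the test told neither the hairpins of 1 gene nor the 2 genes apart.

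Where the matching single hairpins were far apart, the combinations differed in the same direction. At the 11 opened sites where shARID1A.2 and shARID1B.3 together were lower than shARID1A.4 and shARID1B.2 by more than 0.5 on the log2(CPM + 0.5) scale, shARID1A/B.2.3 was lower than shARID1A/B.4.2 by a median log2 difference of -0.77. At the 6 sites where they were higher by more than 0.5, it was higher by 0.61. At the 748 sites within 0.2 of zero the median was 0.01. The 2 differences share no library, and over the 1004 sites, which are not independent of each other, their Pearson r was 0.516 and Spearman's rho 0.353. Over the other distal sites at the level threshold r was 0.687 and rho 0.584.

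**Figure D3:**
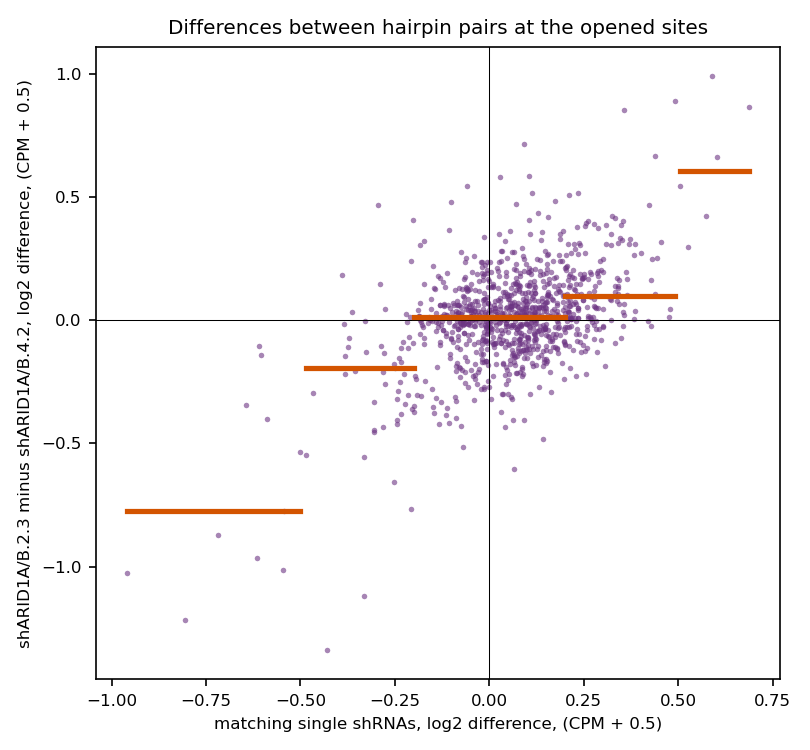
Each point is an opened distal site. The x axis is the mean log2 difference of shARID1A.2 and shARID1B.3 from shARID1A.4 and shARID1B.2, the y axis is the log2 difference of shARID1A/B.2.3 from shARID1A/B.4.2, both of CPM + 0.5, and orange bars are medians in 5 ranges of x, which rise from -0.77 to 0.61.

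The site with the largest smaller ratio lay on chromosome 13 in a gene desert, nearest to LINC00358, a long non-coding RNA gene (chr13:62697587-62698224, intergenic). Its Control libraries had 0.75, 0.72 and 0.75 CPM, those of shARID1A/B.2.3 had 3.11, 3.13 and 3.00, and those of shARID1A/B.4.2 had 3.47, 3.88 and 3.42. The single hairpins had 2.07 to 2.5 CPM with shARID1A.2, 2.04 to 2.90 with shARID1A.4, 2.68 to 3.50 with shARID1B.2 and 1.90 to 2.59 with shARID1B.3. All 18 libraries with a hairpin against ARID1A or ARID1B thus exceeded all 3 Control libraries. Its central window, shown above, is AT-rich with 36.3% GC. It was 1 of 4 opened sites nearest to this gene. The second (chr13:62702481-62703730) rose from 1.12 CPM in Control to 4.53 and 6.84 CPM, ratios of 4.03 and 6.09, and had means of 2.63, 4.30, 4.76 and 3.62 CPM with shARID1A.2, shARID1A.4, shARID1B.2 and shARID1B.3. The third (chr13:62719482-62720850) had 0.62 CPM in Control and 1.62 and 3.63 CPM in the combinations, and only shARID1A.4 among the single hairpins had a mean over 1 CPM, at 2.08 CPM. The fourth (chr13:62838868-62839635) had 0.67 CPM in Control, 2.53 and 2.24 CPM in the combinations, and 0.89 to 1.47 CPM with single hairpins. From 100000 bases before the first site to 100000 after the last there were 25 sites, of which 2 were closed and 7 had both ratios above 1, with median ratios of 1.14 and 0.894. The stretch as a whole did not share the gain of the 4 sites.

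Other large gains were seen at single sites in introns and between genes. The site in intron 2 of C6orf7 (chr6:79806685-79806923), averaged 1.03 ± 0.23 CPM (SD, n = 3 here and below) in Control, 3.32 ± 0.46 under shARID1A/B.2.3, and 2.95 ± 0.41 under shARID1A/B.4.2. Its single hairpins ranged from 1.34 to 2.81 CPM, all above the highest Control library. A site upstream of SESN2, a stress-induced inhibitor of mTORC1 signalling (chr1:28248382-28249819), had 3.38, 2.54 and 3.18 CPM in Control, 7.37, 7.08 and 8.58 with shARID1A/B.2.3, and 7.46, 7.89 and 7.91 with shARID1A/B.4.2. Every single-hairpin library of that site, from 3.98 to 7.16 CPM, was above every Control library. A site in an intron of KCNQ5, which encodes a voltage-gated potassium channel (chr6:73003519-73005650, nearest start MIR4282), rose from 2.45 ± 0.41 CPM to 6.75 ± 1.03 and 7.31 ± 0.66. A site in an intron of CCDC171 (chr9:15881557-15882982, nearest start LOC100506331) rose from 2.47 ± 0.06 to 6.51 ± 1.13 and 6.58 ± 1.12 CPM. In intron 8 of FTO, an RNA demethylase gene (chr16:54062691-54062977, nearest start FTO-IT1), the means were 0.86 CPM in Control and 2.14 and 2.16 in the combinations. The subtelomeric site nearest to LINC00266-1 (chr20:64285548-64286406), which holds the CTCF motif, had 1.57 to 1.97 CPM in Control and 3.59 to 5.53 CPM in the combinations. At each of these sites every combination library was above every Control library, which their choice by these ratios favours.

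**Figure D4:**
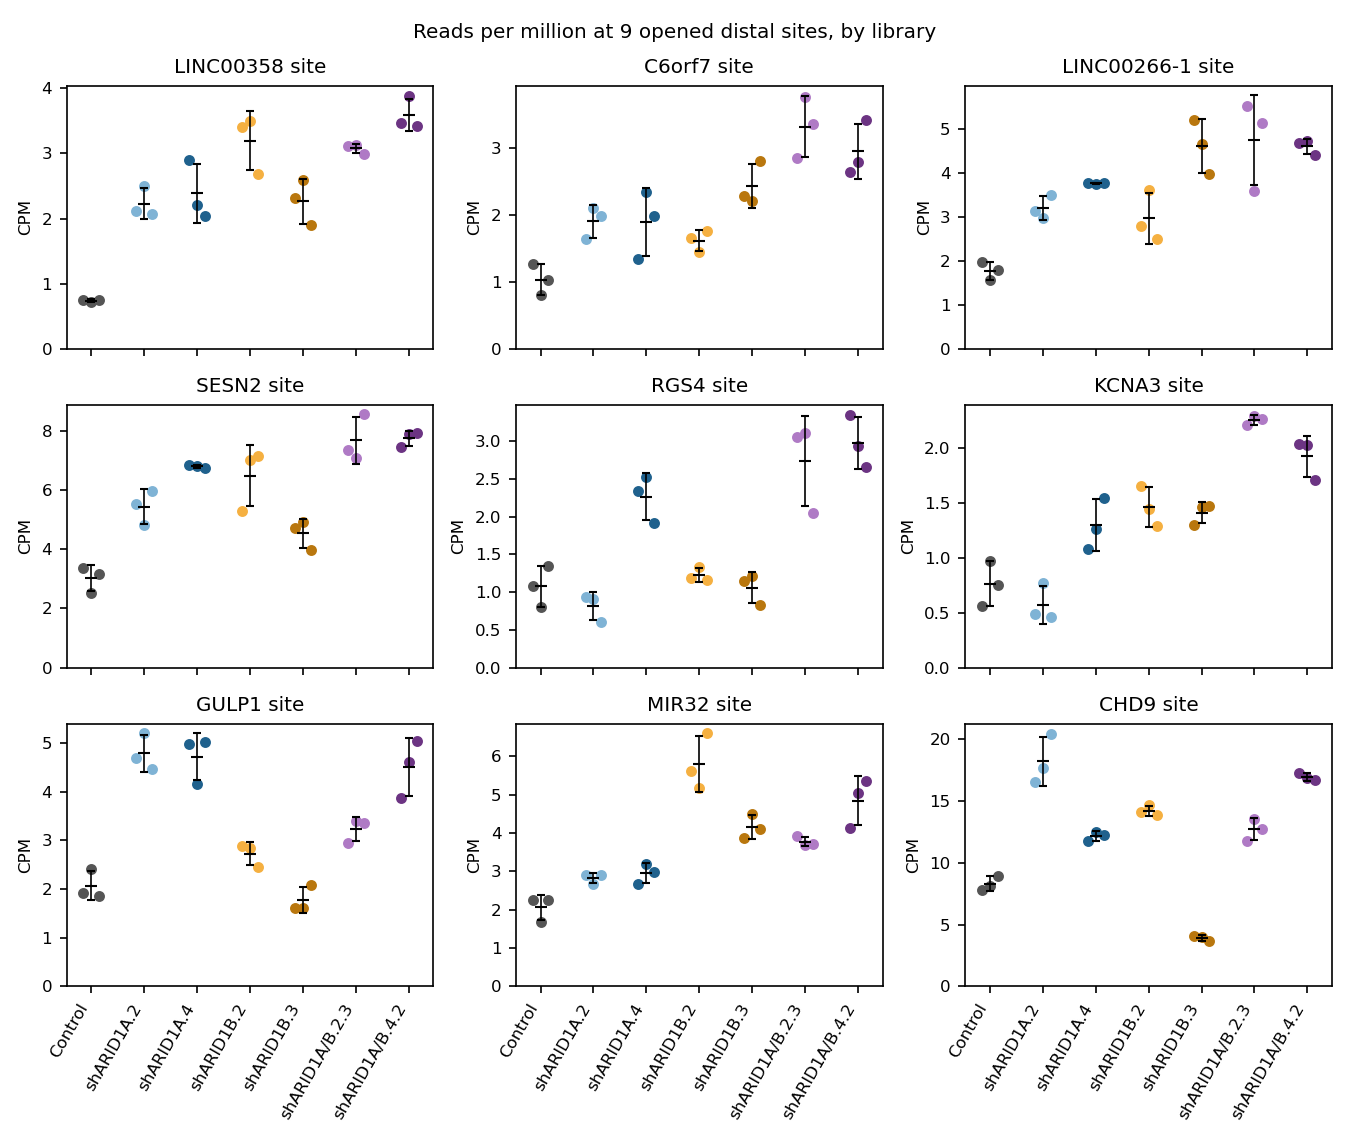
CPM in each of the 3 libraries of each group (points) with the group mean and SD (black) at 9 opened distal sites named by their nearest gene. The Control mean is the lowest except at CHD9 and GULP1, where shARID1B.3 lies below it, at KCNA3, where shARID1A.2 does, and at RGS4, where both do.

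At 3 of the 10 largest gains the libraries of shARID1A.2 overlapped those of Control. A site upstream of RGS4, a brake on G-protein signalling (chr1:163050612-163050873), had 0.93, 0.90 and 0.60 CPM with shARID1A.2 and 2.34, 2.53 and 1.92 with shARID1A.4, where Control had 1.08, 0.80 and 1.35. The log2 difference between the hairpins was -1.56 (SE 0.24, edgeR FDR 8.09e-07). The combination shARID1A/B.2.3, which carries shARID1A.2, had 3.05, 3.10 and 2.04 CPM, above all libraries of shARID1A.2, shARID1B.2 and shARID1B.3. A site near KCNA3, a lymphocyte and neuronal potassium channel gene (chr1:110688272-110688924), had 0.57 ± 0.17 CPM with shARID1A.2 and 1.30 ± 0.24 with shARID1A.4, against 0.76 ± 0.20 in Control and 2.26 ± 0.043 and 1.93 ± 0.19 in the combinations. A site in intron 1 of FGF20, which encodes a fibroblast growth factor (chr8:16997246-16998034), had 4.65 to 5.02 CPM with shARID1A.2, within the 4.57 to 5.03 CPM of Control, and 10.6 to 11.7 with shARID1A.4. Its combinations had 10.6 to 14.4 CPM, and shARID1B.3 alone had 12.9 to 13.9. The test between the ARID1A hairpins called all of these sites, with log2 differences of -1.21 at KCNA3 and -1.28 at FGF20.

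The ARID1A hairpins exceeded both ARID1B hairpins without overlap of the libraries at 16 of the called opened sites, where 0.297% of all tested sites were called in this way, and the ARID1B hairpins exceeded both ARID1A hairpins at 6, where 1.35% were. The largest difference in favour of ARID1A silencing was at a site in an intron of COG5, nearest to GPR22, an orphan receptor gene (chr7:107485167-107486302). It had 2.63 to 3.31 CPM with shARID1A.2 and 5.11 to 5.46 with shARID1A.4, against 1.04 to 1.57 with both ARID1B hairpins and 1.43 to 1.69 in Control (log2 difference 1.49, SE 0.12, edgeR FDR 4.94e-17). The libraries of the ARID1B hairpins overlapped those of Control. The next was upstream of GULP1, an adaptor gene of engulfment (chr2:188021843-188023927), at 4.15 to 5.21 CPM with ARID1A hairpins and 1.6 to 2.89 with ARID1B hairpins (log2 difference 1.12, SE 0.11, edgeR FDR 7.92e-14). Here shARID1A/B.2.3, at 2.95 to 3.39 CPM, lay below every library of the ARID1A hairpins. Sites in an intron of INPP5A nearest to NKX6-2, a site upstream of STMN2, a neuronal growth gene, and a site in intron 5 of ESRRG, an orphan nuclear receptor gene, followed with log2 differences of 1.06, 0.98 and 0.97. The GULP1 site lay at -269778 bases from the start of its gene, and the STMN2 site at -360953 bases. At the ESRRG site (chr1:216560481-216561450) Control had 4.86 to 5.84 CPM and the ARID1B hairpins 4.34 to 5.69, where the ARID1A hairpins had 8.93 to 11.1 and the combinations 9.85 to 10.7.

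In the other direction the differences were smaller. A site in an intron of TMEM245, nearest to MIR32 (chr9:109033370-109035572), had 2.67 to 3.21 CPM with ARID1A hairpins and 3.86 to 6.61 with ARID1B hairpins (log2 difference -0.78, SE 0.11, edgeR FDR 1.57e-08). A site in intron 1 of PC, the pyruvate carboxylase gene, nearest to MIR3163 (chr11:66950106-66950636), had 3.34 to 3.90 and 4.46 to 7.58 CPM (log2 difference -0.75, SE 0.11, edgeR FDR 3.1e-08). Sites nearest to TTC8, AKAP6 and MIR137HG followed with log2 differences of -0.60, -0.51 and -0.46, and the AKAP6 site was no longer called without shARID1A.2 replicate 3 or shARID1A.4 replicate 2. The MIR137HG site (chr1:98128509-98130675), beside the host gene of the brain microRNA miR-137, was highest with shARID1A/B.2.3, at 10.3 to 12.4 CPM, against 7.46 to 8.25 with shARID1A/B.4.2 and 3.49 to 3.85 in Control.

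Hairpins against the same gene also differed at named sites. A site upstream of CHD9, a chromatin remodeller gene (chr16:52928425-52930374), had 14.1, 14.7 and 13.9 CPM with shARID1B.2 and 4.05, 4.02 and 3.64 with shARID1B.3, where Control had 7.80, 8.16 and 8.97 (log2 difference -1.84, SE 0.11, edgeR FDR 4.96e-24). The combination shARID1A/B.2.3, which carries shARID1B.3, had 11.8, 13.6 and 12.8 CPM there, above Control. This site lay at -125594 bases from the start of CHD9. A site nearest to LOC102724847 (chr16:49084303-49085437) had 3.31 to 5.36 CPM with shARID1B.2 and 1.33 to 1.86 with shARID1B.3 (log2 difference -1.4). The combinations were apart there too, at 2.95 to 3.91 CPM with shARID1A/B.2.3 and 6.58 to 8.27 with shARID1A/B.4.2. The reverse was seen in an intron of PLCB1, a phospholipase gene, nearest to RNU105B (chr20:8807959-8809466), at 6.93 to 7.40 CPM with shARID1B.3 and 2.41 to 3.37 with shARID1B.2 (log2 difference 1.31), and at the site nearest to RP11-37B2.1 (1.14). Of the ARID1A hairpins, shARID1A.2 was higher beside MRS2, a mitochondrial magnesium channel gene (2.61 to 3.27 against 0.99 to 1.17 CPM), and LINC00705, with log2 differences of 1.4 and 1.25, and lower beside LSP1P3, with -1.50. The LINC00705 site, at -123677 bases from the start of that gene, was no longer called without shARID1A.4 replicate 1. Around these 18 sites, the other tested sites within 500000 bases had median log2 differences in the same contrast of -0.16 to 0.12. Some of these neighbours were called too, at most 16 of 155 in the direction of the site (TTC8) and at most 23 of 161 in the other (RNU105B). At NKX6-2, STMN2, MIR32, TTC8, AKAP6, MRS2, LINC00705 and RP11-37B2.1, a neighbour differed more in the direction of the site than the site itself. At the rest of the named sites no neighbour did.

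The 5 opened sites with the most reads were of 2 kinds. Of these, 3 lay beside the centromere of chromosome 16 and were rich in the GGAAT pentamer. The ANKRD26P1 site (chr16:46386884-46391449) had 82.7, 111 and 84.2 CPM in Control, 144, 195 and 145 with shARID1A/B.2.3, and 142, 139 and 141 with shARID1A/B.4.2. A second site (chr16:46398377-46401606), the one shown above, had 77.7 to 99.1 CPM in Control and 126 to 175 CPM in the combinations. At each, the second Control library and the second library of shARID1A/B.2.3 were the highest of their groups. The LOC102724523 site (chr16:34581249-34583844) had 50.8 to 69.5 CPM in Control and 91.0 to 129.6 CPM in the combinations. Reads from near-identical repeats cannot be placed with certainty, so the values of these sites are uncertain. The other 2 were annotated as promoters, while their deposited distance was to another start. The GCA promoter (chr2:162343684-162344622), of a calcium-binding protein gene, had 23.2 to 31.3 CPM in Control, 50.4 to 74.8 CPM under shARID1A/B.2.3, and 40 to 42.6 CPM under shARID1A/B.4.2. The PC promoter (chr11:66957864-66959079, nearest start C11orf86) had 29.2 to 35.2 CPM in Control and 45.1 to 54.4 in the combinations.

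The opened sites held CTCF and CCAAT motifs more often than the closed or the remaining distal sites did. The CTCF motif was found in the central 300 bases of 50 opened sites (4.98%), against 1.58% of the other distal sites at the level threshold, 0.215% of closed sites and 0.864% of all distal sites. Within the band of 40 to 50% GC the shares were 6.19% of opened and 1.56% of other sites, so the difference was present among windows of like GC. The NFY motif (CCAATNAG) was found in 90 opened sites, or 8.96%, against 4.48% and 3.83%. In the same band it was in 15.6% against 5.36%, while under 40% GC it was in 2.93% against 3.10%. Of these 90 sites, 35 hold at least 2 copies of CCAATCAG, which matches the NFY motif, as do 687 of the 4193 other sites with it. The SP and KLF motif (GGGCGG) was in 17.2% of opened sites, 10.1% of other and 4.96% of closed sites, but under 40% GC in none of the opened and 0.790% of the other sites, and the cAMP response element (TGACGTCA) in 0.797%, 0.215% and 0.136%. The E-box CAGGTG, which SNAI and ZEB factors read, was in 32.7%, 24.7% and 16%. Both strands were searched, and the motifs can overlap.

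Over all windows, motifs of the noradrenergic neuroblastoma enhancers were less frequent in opened sites than in either of the other sets, but for most of them not in every band of GC. The motif of GATA factors, spelled AGATAA, was in 13.8% of opened, 17.4% of other and 24.8% of closed sites. The E-box CAGATG, read by TWIST and proneural factors, was in 18.8%, 23.2% and 33.9%, and the homeobox core TAATTA in 5.38%, 8.47% and 14.6%. The PHOX2 motif was in 4 opened sites, or 0.398%, against 0.738% and 1.84%. AP-1 (TGANTCA) was in 8.76%, 10.4% and 13.3%. Within bands of GC, GATA was in 15.9% of opened and 19.8% of other sites at 40 to 50% GC, but in 3% and 2.57% at 60% GC or more. The homeobox core was in 5.01% and 8.41% at 40 to 50% GC, but in 1% and 0.866% at 60% or more. CAGATG was lower in each band, by little under 40% GC, at 19.5% and 19.8%. PHOX2 turned at 40 to 50% GC, with 0.885% and 0.582%. AP-1 was slightly more frequent in opened sites under 40% GC, at 12.7% against 12.3%, and at 40 to 50%, at 12.7% against 11.9%. TEAD (GGAATG) differed little over all windows, at 16.3%, 16.6% and 17.6%. It was in 17.6% of opened and 14.5% of other sites under 40% GC, and in 9.5% and 11.3% at 60% or more. Tandem GGAAT pentamers spell the same letters, and their part in these shares was not tested. A match is a description of the letters in the window and not a bound site.

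**Figure D5:**
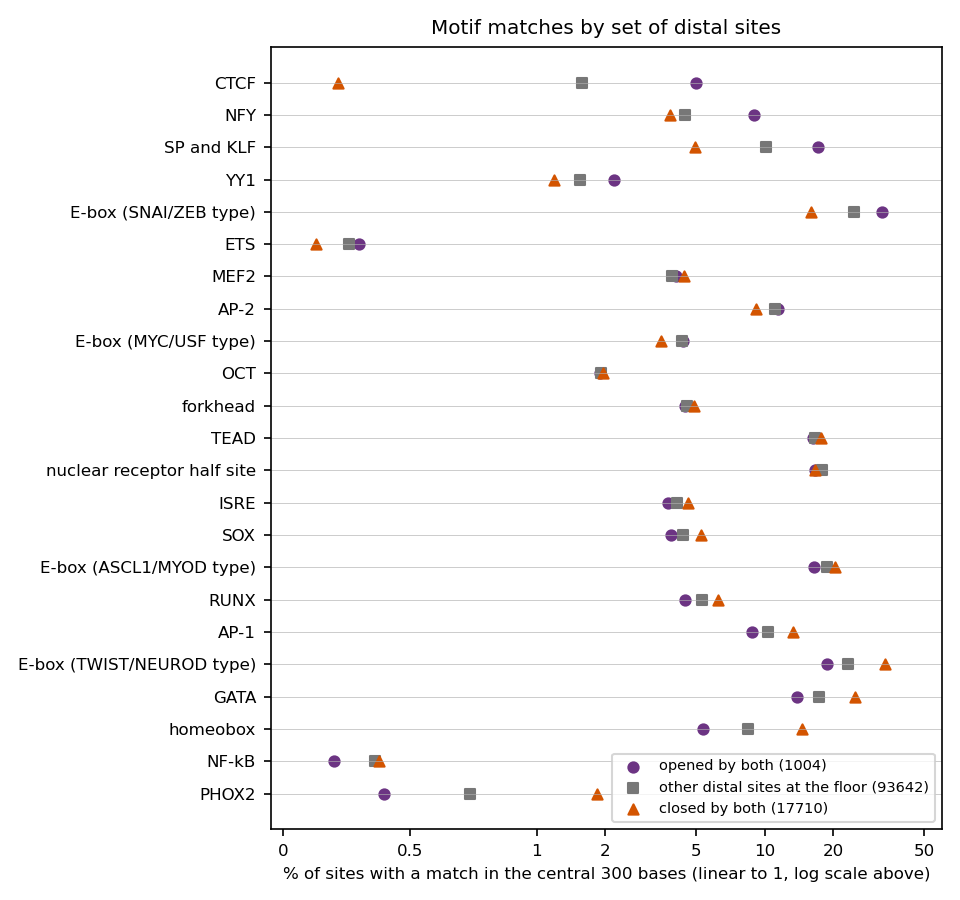
Percentage of sites with a match to each motif in their central 300 bases (x axis, linear to 1 and logarithmic above) for opened distal sites, other distal sites at the level threshold and closed distal sites, for motifs found in at least 0.2% of all distal sites. From top to bottom the motifs go from the highest to the lowest share in opened relative to other sites. CTCF and NFY lead, and GATA, homeobox and PHOX2 are among the last.

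The windows fell into 5 exclusive sequence groups, which were set after the windows had been read. A window with at least 10 copies of the pentamer GGAAT or its complement was found at 21 opened sites, or 2.09%, and at 0.0609% of the other distal sites, and at none of the closed sites. Of these satellite-like sites, 7 were called lower and 0 higher after ARID1A than after ARID1B silencing, where 3.69% and 1.05% of all tested sites were, with a median log2 difference of -0.28. They had a median of 5.24 CPM with shARID1B.2, 3.87 with shARID1A.2 and 3.22 with shARID1A.4, against 2.86 in Control and 5.28 and 5.08 in the combinations. The 57 pentamer-rich distal sites that the rule left out also had positive medians against Control, of 0.59 and 0.47 on the log2 scale.

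At least 2 copies of CCAATCAG in the window were found at 35 opened sites, or 3.49%, against 0.734% of the other distal sites and 4 closed sites, 0.0226%. All of these windows also count as NFY matches, so this result is not separate from that of the NFY motif. The most frequent 16-mers of the opened windows hold the same CCAAT box, and tandem CCAAT boxes of this kind are known from the LTR12 promoters of the endogenous retrovirus ERV9. The repeats were not annotated here, so the assignment was not tested. One such 16-mer was found in 22 opened sites and at 0.196% of the other distal sites. The group had median levels of 1.20 CPM in Control, 2.52 with shARID1A/B.2.3 and 2.04 with shARID1A/B.4.2. Of the 35, 3 were called higher and 1 lower with shARID1B.3 than with shARID1B.2, where 2.96% and 4.26% of all tested sites were, with a median log2 difference of 0.33. The 687 other distal sites with such windows had a median log2 difference from Control of 0.32 with shARID1A/B.2.3 and 0.07 with shARID1A/B.4.2.

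The 50 sites with the CTCF motif had medians of 1.44 CPM in Control and 2.35 and 2.28 in the combinations, and 5 of them were called higher with shARID1B.3 than with shARID1B.2 and 0 lower, where 2.96% and 4.26% of all tested sites were. A start of a GENCODE v44 transcript lay within 1000 bases of a further 163 sites, GC-rich sites with a median of 60% GC, of which 8 were called higher and 1 lower in that contrast. After ARID1A than after ARID1B silencing 7 were called higher and 2 lower, where 1.05% and 3.69% of all tested sites were. These counts are too small to be set against one another. Their deposited distances, taken from another gene set, were all over 3000 bases. The remaining 735 sites had none of these marks, and their largest smaller ratio was the 4.15 of the LINC00358 site.

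The opened sites were shorter, richer in GC and closer to genes than other distal sites at the level threshold. Their median width was 1080 bases against 1744, with 1189 in closed sites. It was 729 over all distal sites, so the opened sites were not short among distal sites in general. Their median window GC was 48.7% against 47.0% and 43.3% in closed sites, and 19.9% of windows had 60% GC or more, against 11.3% and 3.95%. In the deposited annotation 547 were intergenic, 367 intronic, 46 exonic, 27 in promoters and 17 at transcript ends. The median distance to a start was 29743 bases, against 47593 for other and 55422 for closed distal sites. A closed site lay within 10000 bases of 64 opened sites (6.37%). For other distal sites the share was 20.5%, but they include closed sites that reach the level threshold in both combinations. Such a site counts as its own nearest closed site, which an opened site cannot do. The share of opened sites near a closed site is therefore not compared with that of other distal sites. The mean GC of the reads also differed between groups, at 51.3 to 52.0% in Control libraries and 52.4 to 53.2% in combination libraries, and its part in these shares was not tested.

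Opened sites were spread over the genome with a few clusters. They had 891 nearest genes, of which 810 had 1 opened site. Joining sites less than 100000 bases apart gave 869 runs, and 22 runs of at least 3 held 87 sites. The longest run held 8 sites (chr16:35311009-35553389), followed by 7 near BAGE2 beside the centromere of chromosome 21 (chr21:10325628-10456665) and 6 near LOC102724523 (chr16:34571649-34596145). The last 6 were all pentamer-rich, and none of the other 15 was. Gene-dense stretches gave others, with 6 sites near CA5A and 5 near ZNF469 on 16q and 4 each near MAP1S and MAST3 on chromosome 19. Among the numbered chromosomes, 6.32% of the distal sites at the level threshold were opened on chromosome 19, 5.53% on 21, 3.86% on 18 and 3.72% on 22, against 1.06% over the genome and 0.536% on chromosome 6. Unplaced contigs held 7 opened sites beside 207 other distal sites.

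Genes of neuroblastoma cell states and of other lists were read as nearest genes. Of all distal sites at the level threshold 1.06% were opened, so the counts per list are small and no difference between lists is read from them. Closed sites were counted by the mirror rule, which sets no level in the combinations. Their counts are therefore not parts of the totals at the level threshold. None of 243 sites at the level threshold of 22 noradrenergic core regulatory factors was opened, and these genes had 48 closed distal sites. Of 159 sites of 36 mesenchymal factors 1 was opened, beside BHLHE41, a clock repressor gene, and these genes had 26 closed distal sites. No site of AP-1 genes (20 sites), TEAD factors and YAP1 targets (82), cell cycle inhibitors and D-type cyclins (37), interferon response genes (55), SOX genes (63) or FOX genes (157) was opened. Of the 73 sites of BAF, PBAF and ncBAF subunit genes, 3 (4.11%) were opened, beside ARID1A, ARID2 and GLTSCR1. These genes had 19 closed distal sites. The GLTSCR1 site (chr19:47600072-47601019) had 5.16 to 6.55 CPM in Control and 8.07 to 9.94 in the combinations.

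Adhesion and guidance genes had opened sites near the general share. Axon guidance genes had 7 of 528 sites at the level threshold opened, at EPHA3, NTNG2, ROBO2 and UNC5B. They had 179 closed distal sites, a count that here too is not a part of the total. The EPHA3 site, upstream of this ephrin receptor gene, had 2.30 to 3.30 CPM in Control and 4.32 to 6.20 CPM in the combinations, and it holds the CTCF motif. Of 61 integrin sites, 1 was opened, beside ITGA4, with 1.02 to 1.46 CPM in Control and 1.62 to 2.34 in the combinations. Integrin genes had 29 closed distal sites. Of 172 cadherin sites, 2 were opened, nearest to CDH9 and CDH10, and cadherin genes had 54 closed distal sites. The CDH10 site lay 199326 bases from the start of that gene. Sympathetic and chromaffin genes had 2 of 206, beside PRPH and STMN2, the retinoic acid pathway 1 of 76, beside RXRA, and the TGF-beta and BMP pathway 3 of 278, beside BMP2, INHBA and SMAD2. The SMAD2 site was a promoter of that signal transducer gene (chr18:47929958-47931832), at 20.0 to 20.6 CPM in Control, 30.3 to 33.2 CPM under shARID1A/B.2.3, and 29.7 to 34.1 CPM under shARID1A/B.4.2. The names are those of nearest genes, whatever gene a site acts on, and expression was not analysed here.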

How the data were processed

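ATAC-seq, which reads open chromatin by the insertions of a transposase, was measured in 21 libraries. The authors aligned reads to GRCh38, called consensus sites on merged replicates and deposited raw read counts per site. For the aligner, the peak caller and the handling of multimapping reads, details were not given in the sources used here. Besides counts, the deposited tables hold signal columns, counts that the authors divided by DESeq2 size factors, and columns of the authors' own comparisons (fold changes and p-values). None of these was used. Counts were converted to CPM (count divided by the column sum, times 1e6). The members, the gene lists and the motifs were chosen with earlier results of these data known.

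Tests used edgeR 4.0.16 in R 4.3.3, the quasi-likelihood test with TMM scaling, filterByExpr at a minimum count of 10, all 21 libraries in 1 model without covariates, and Benjamini-Hochberg adjustment over the 357029 sites tested. The filter removed 10871 sites and kept all 1004 opened sites. DESeq2 1.42.0 was an alternative. The fit was tested on simulated data. Depth was 16140029 to 44472230 reads per library. P-values measure the spread between libraries that the labels call biological triplicates.

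Sites are named by their nearest gene in the deposited annotation. The text names the 10 sites with the largest smaller ratio (1 per gene), the 5 with the most reads, the 5 with the largest non-overlapping difference in each direction between ARID1A and ARID1B silencing, the 2 in each direction for each pair of hairpins, the leading site of gene lists and the sites nearest to each threshold. Motifs and sequences were read from the GRCh38 primary sequence in windows of 300 bases. Transcript starts came from GENCODE v44. The sequence of 1 named site is not reported here. The sequence groups and the ANKRD26P1 window were chosen after the windows were read. Alternatives covered scaling, filter, thresholds, GC offsets, a replicate block, leaving out each library and, chosen after seeing the data, a fit of the 12 single-hairpin libraries alone.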

Additional observations from a re-analysis of the deposited data

Results flagged for a closer look

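The single hairpins were told apart at some of the opened sites, by a test of the difference between the groups whose means use no library of the rule. The edgeR quasi-likelihood test called 68 opened sites between ARID1A and ARID1B silencing, where 1.05% of all tested sites were called higher and 3.69% lower. It called 40 between shARID1A.2 and shARID1A.4 (0.737% and 1.84%), and 87 between shARID1B.3 and shARID1B.2 (2.96% and 4.26%). These shares are over all tested sites, and those over distal sites at the level threshold were larger. Between ARID1A and ARID1B silencing, the log2 differences of the named sites were 1.49 (GPR22), 1.12 (GULP1), 1.06 (NKX6-2), 0.98 (STMN2) and 0.97 (ESRRG) where ARID1A silencing was higher. They were -0.78 (MIR32), -0.75 (MIR3163), -0.60 (TTC8), -0.51 (AKAP6) and -0.46 (MIR137HG) where it was lower. Between shARID1A.2 and shARID1A.4 they were 1.4 (MRS2), 1.25 (LINC00705), -1.56 (RGS4) and -1.50 (LSP1P3). Between shARID1B.3 and shARID1B.2 they were 1.31 (RNU105B), 1.14 (RP11-37B2.1), -1.84 (CHD9) and -1.4 (LOC102724847). The named sites are the largest differences of each contrast. The median SE over opened sites was 0.14 between the genes, 0.20 between the ARID1A hairpins and 0.19 between the ARID1B hairpins. The sizes at named sites are therefore not compared between contrasts. How far each hairpin silenced its target was not measured in these data.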

How the results depend on the processing

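The named differences kept their sign under all 29 alternatives each, and 3 calls were lost, at AKAP6 and LINC00705, when 1 library was left out. The rule found 132 sites with promoter-based scaling, 47 at a ratio of at least 2 and 329 at 3 CPM, and 943 to 1697 with 1 library left out. Calls at opened sites moved by over 1.5 times as follows. Between ARID1A and ARID1B silencing, 25 sites were called at 1.5 times or more. At an FDR under 0.05, calls were 62 between the ARID1A hairpins, 176 between the ARID1B hairpins, and 588 and 511 for ARID1A and ARID1B silencing over Control. Promoter-based scaling gave 172 and 147 for these, and 366 and 233 for shARID1A/B.2.3 and shARID1A/B.4.2 over Control. It moved the median log2 difference of all tested sites to -0.32 for shARID1A/B.4.2 over Control. DESeq2 gave 53 between the ARID1B hairpins and 437 for shARID1A/B.2.3 over Control. Leaving out 1 library gave 52 to 78 calls between the genes, 29 to 45 between the ARID1A hairpins, 48 to 118 between the ARID1B hairpins, 208 to 446 and 154 to 360 for ARID1A and ARID1B silencing over Control, and 438 to 679 and 489 to 794 for the combinations. In a fit of the 12 single-hairpin libraries alone, chosen after seeing the data, calls were 84 between the genes, 46 between the ARID1A hairpins and 133 between the ARID1B hairpins, and all of the 68, 40 and 87 were among them. Between the ARID1B hairpins, 118 were called without shARID1A/B.2.3 replicate 2. The lowest counts over Control for ARID1A silencing, ARID1B silencing and shARID1A/B.2.3 came without Control replicate 2. The labels do not say that replicate numbers pair the libraries. The correlation of same-numbered deviations was -0.309 to 0.504 with a median of 0.0123, over 0.1 in 13 of 63 pairs, and 13 of 21 libraries correlated best with their own number, a hint from the data. Between Control and shARID1A/B.2.3 all 3 were over 0.1, at 0.192, 0.504 and 0.208, and the replicate block gave 712 rather than 674 calls there. With the replicate block, calls were 75 between the genes, 43 between the ARID1A hairpins and 108 between the ARID1B hairpins, and with GC offsets added 73, 51 and 96. The causes of these shifts were not tested. At a median of 1.47 CPM in Control, small differences are not detectable at single sites.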
